A study of Mus musculus with 4 samples.

Results

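The 10 genes described here encode the core of Polycomb repressive complex 2 (Ezh1, Ezh2, Eed and Suz12) and the enzymes, reader and corepressor of histone H3 lysine 9 methylation (Suv39h1, Suv39h2, Ehmt2, Setdb1, Cbx5 and Trim28). They were chosen by name for these roles, with earlier results of these data known, and all 10 were found among the 43629 gene identifiers counted. All 10 passed the filter on low counts that left 16500 genes to test, with between 381 and 11871 reads for a gene in a library.

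Polycomb repressive complex 2, PRC2, places methyl groups on lysine 27 of histone H3, a mark that holds developmental genes silent, and PRC1 binds that mark and adds ubiquitin to histone H2A. Methylation of lysine 9 of the same histone marks heterochromatin, where it is bound by HP1 proteins and keeps repeats, retroviral elements and many germline genes silent. Both marks have to be put back on new nucleosomes after each round of DNA replication, and the histone chaperone CAF-1, of which Chaf1b is a subunit, places histones H3 and H4 on newly copied DNA. In blood stem and progenitor cells, PRC2 is known for limiting which lineage programs are active.

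The study compared gene expression in 2 groups of 2 libraries from primary mouse CD117+ hematopoietic stem and progenitor cells (HSPCs), to ask what deletion of Chaf1b does to the transcriptome. The cells came from C57Bl/6 mice with genotype Chaf1b fl/fl and were cultured in Stemspan SFEMII with SCF at 50 ng/mL, IL6 at 20 ng/mL, IL3 at 10 ng/mL and LDL, as the labels give them, while the study's methods give a lower IL6 concentration. Control HSPCs received the empty retrovirus MIGR1, Chaf1b-deleted HSPCs received MIGR1-Cre, and eGFP positive cells were sorted 48 h after spinfection. Both groups therefore carried the floxed alleles, the vector and eGFP, the sort selected cells for the virus and not for the deletion itself, and effects of Cre and of Chaf1b loss cannot be told apart.

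Between 18468637 and 25409926 reads were counted on genes per library, and values are given per library as the share of these reads scaled to counts per 1e6 (CPM). Chaf1b stood at 80.3 and 57.9 CPM in the controls and at 16.1 and 17.9 CPM in the deleted libraries, and it fell by 2.01 on the log2 scale (SE 0.25, adjusted p = 0.033 by the quasi-likelihood test of edgeR, with the Benjamini-Hochberg method over all genes tested, written as the edgeR adjusted p from here on). The partner subunit Chaf1a differed by -0.43 (edgeR adjusted p = 0.569). Chaf1b-deleted replicate 1 stood apart from the other 3 libraries in Xist and in interferon-stimulated genes. It held 336 CPM of Xist, the RNA of the inactive X chromosome of females, against 1.14 to 1.30 CPM in the other 3, and 2221 CPM over 18 interferon-stimulated genes against 329 to 407 CPM. The 8 HSPC markers summed to between 1929 and 2206 CPM in every library, and 8 neutrophil granule and surface markers to between 45080 and 65430 CPM, highest in Chaf1b-deleted replicate 1, so the libraries carried both progenitor and granulocytic RNA. In such bulk RNA, fewer cells of a type and less RNA per cell cannot be told apart.

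None of the 10 genes changed by at least 1.5-fold with an edgeR adjusted p under 0.05, against 0.376% of all genes tested called by the same rule, 0.37% higher and 0.00606% lower. In the edgeR test 1 of the 10, Cbx5, was lower with an unadjusted p under 0.05, against 3.1% of all genes. None of the 10 was called by edgeR's exact or likelihood ratio test or by DESeq2. The fitted log2 difference, Chaf1b-deleted minus control, was below 0 for 9 of the 10, where 52.5% of all genes were below 0. The median over the 10 was -0.16, and -0.030 over all genes. Cbx5 lay lowest at -0.64, and the other 9 lay between -0.20 and 0.056. The 95% interval of the difference included 0 for those 9 and lay within 2-fold in both directions for each of them, but within 1.5-fold for only 1 of the 10, Suv39h1.

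**Figure D1:**
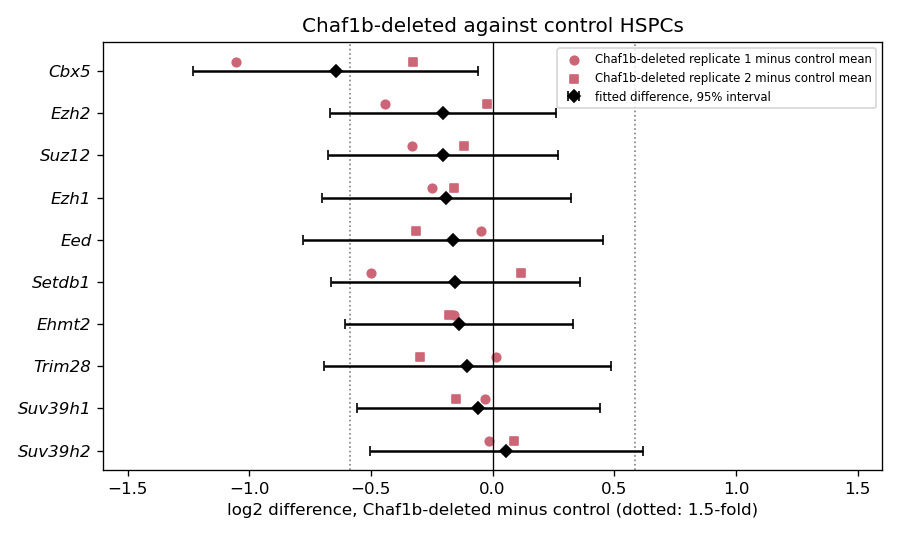
Fitted log2 differences of the 10 genes, Chaf1b-deleted minus control (black diamonds, with 95% intervals of the edgeR fit), with each deleted library minus the mean log2 CPM of the 2 controls as a red circle (replicate 1) or square (replicate 2). Dotted lines mark 1.5-fold, and the interval of Cbx5, from -1.23 to -0.059, is the only 1 of the 10 to the left of 0.

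Levels can be compared between genes only after division by transcript length, here as CPM per kilobase of the summed exons. In the controls, Trim28 had the highest level at 67.4 CPM per kilobase, followed by Cbx5 at 52.6, Suz12 at 45.9, Ehmt2 at 30.6 and Eed at 24.3. Setdb1 stood at 15.7, Ezh2 at 15.6, Suv39h1 at 10.6, Ezh1 at 5.83 and Suv39h2 at 4.41 CPM per kilobase. Over the 4 libraries the ranges of Cbx5 and Suz12, of Ehmt2 and Eed, and of Setdb1 and Ezh2 overlapped. Cbx5 was above Suz12, and Setdb1 above Ezh2, in only 2 of the 4 libraries, so the order within these pairs is not larger than the spread. Ehmt2 was above Eed in all 4 libraries despite the overlap. Each other pair of neighbours kept its order in all 4 libraries with ranges that did not overlap. Among the 4 core PRC2 genes, the scaffold Suz12 was the most abundant transcript per length and Ezh1 the least.

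**Figure D2:**
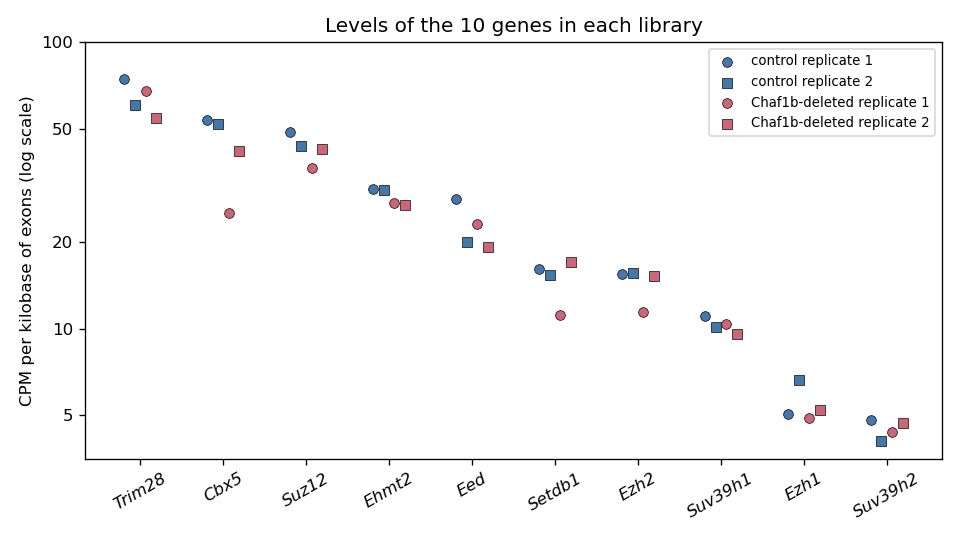
Levels of the 10 genes in CPM per kilobase of exons, on a log axis, in the 2 control libraries (blue) and the 2 Chaf1b-deleted libraries (red), with circles for replicate 1 and squares for replicate 2. Genes are ordered by the control mean, from 67.4 for Trim28 to 4.41 for Suv39h2, and the lowest point of Cbx5 is Chaf1b-deleted replicate 1.

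Ezh2 (ENSMUSG00000029687, chr6:47480273-47545340, minus strand, NCBIM37) encodes the methyltransferase that most of PRC2 in dividing cells uses. Its level was 96.0 and 96.7 CPM in the controls and 70.9 and 94.9 CPM in the deleted libraries. Both deleted libraries were below both controls, the second of them by little. The log2 difference was -0.20 (SE 0.20, 95% interval -0.67 to 0.26, edgeR adjusted p = 0.749), which in percent allows between -37.2% and 19.9%. Left out in turn, Chaf1b-deleted replicate 1 leaves a difference of -0.10 and replicate 2 one of -0.30.

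Ezh1 (ENSMUSG00000006920, chr11:101052429-101087777, minus strand, NCBIM37) encodes the paralog that is used more in cells that no longer divide. It stood at 37.6 and 49.2 CPM in the controls and at 36.2 and 38.6 CPM in the deleted libraries. The groups overlapped, since Chaf1b-deleted replicate 2 lay above the lower control. The log2 difference was -0.19 (SE 0.22, 95% interval -0.70 to 0.32, edgeR adjusted p = 0.795), and it was smaller than the difference of 0.39 between the 2 controls.

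The balance between the paralogs was read as the ratio of Ezh1 to Ezh2 per kilobase, which does not depend on how libraries are scaled. It was 0.326 and 0.424 in the controls and 0.425 and 0.338 in the deleted libraries, so each group held a low and a high value. The log2 ratio differed by 0.030 between the groups, against SDs of 0.27 in the controls and 0.23 in the deleted libraries (n = 2 each). With 2 libraries against 2, the smallest p that an exact permutation test can give is 0.333, and none was run.

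The start regions of the paralogs are printed because the data bear on both genes together, as 250 bases before the start site in RefSeq (GRCm38.p6), 5′ to 3′ on the strand of the gene. Capitals mark matches to the E2F core GCGGGAA, the CCAAT box CCAAT or the GC box GGGCGG, each searched on both strands. The region of Ezh1 is chr11:101226464-101226713 (minus strand) and that of Ezh2 is chr6:47595031-47595280 (minus strand), in a later build than the gene positions given with the values.
Ezh1: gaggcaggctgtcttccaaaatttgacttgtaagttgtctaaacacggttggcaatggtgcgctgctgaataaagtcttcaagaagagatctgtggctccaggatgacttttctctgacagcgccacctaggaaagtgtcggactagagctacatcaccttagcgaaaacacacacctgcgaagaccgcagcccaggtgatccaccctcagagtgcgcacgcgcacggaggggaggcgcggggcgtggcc
Ezh2: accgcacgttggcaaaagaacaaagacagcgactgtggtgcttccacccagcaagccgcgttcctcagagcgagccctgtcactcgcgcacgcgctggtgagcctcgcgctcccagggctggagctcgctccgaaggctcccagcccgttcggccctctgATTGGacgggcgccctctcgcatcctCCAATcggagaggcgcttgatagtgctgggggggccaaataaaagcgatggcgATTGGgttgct
The Ezh2 window held 3 CCAAT boxes and the Ezh1 window none of the 3 motifs. Over all 32851 promoter windows of this length, 33.8% held a CCAAT box, 32.7% a GC box and 3.82% the E2F core. Among the 10 genes, 5 had a CCAAT box in at least 1 listed start region (Cbx5, Ezh2, Setdb1, Suv39h1 and Suz12). Counted in the same way, 7 had a GC box and 3 the E2F core (Suv39h2, Suz12 and Trim28). Cbx5, Suv39h1 and Ehmt2 have 2 listed start regions each, while the shares over all promoters are per window, so the counts and shares are not alike. For Cbx5 and Suv39h1 only 1 of the 2 regions held a CCAAT box.

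The 2 other core subunits of PRC2 are Suz12, on which the complex is built, and Eed, which binds the trimethylated lysine and stimulates the enzyme. Suz12 (ENSMUSG00000017548, chr11:79806608-79847625, plus strand, NCBIM37) was at 240 and 214 CPM in the controls and at 180 and 209 CPM in the deleted libraries. Both deleted libraries lay below both controls, and the log2 difference was -0.20 (SE 0.20, 95% interval -0.68 to 0.27, edgeR adjusted p = 0.756). Of its exonic stretches of 31 bases, 8.84% occur elsewhere in the genome, where reads can be lost or shared.

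Eed (ENSMUSG00000030619, chr7:97103166-97129493, minus strand, NCBIM37) was at 63.0 and 44.6 CPM in the controls and at 51.3 and 42.7 CPM in the deleted libraries. The controls differed from each other by -0.50 on the log2 scale, more than the groups did, and the groups overlapped. Its log2 difference was -0.16 (SE 0.27, 95% interval -0.78 to 0.46, edgeR adjusted p = 0.858), the widest interval among the 10 genes.

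Because PRC2 subunits act in fixed proportions, the ratio of Ezh2 to Suz12 was also taken. Per kilobase it was 0.319 and 0.360 in the controls and 0.313 and 0.362 in the deleted libraries, and the log2 ratios of the groups differed by -0.0092 with SDs of 0.12 and 0.15. The mean proportion of the transcripts of the enzyme and its scaffold was thus nearly the same in both groups, while replicates within a group differed by more than the groups did.

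Among the H3K9 methyltransferases, Suv39h1 and Suv39h2 place the trimethyl mark in pericentromeric heterochromatin. Suv39h1 (ENSMUSG00000039231, chrX:7638297-7651886, minus strand, NCBIM37) stood at 58.3 and 53.4 CPM in the controls and at 54.6 and 50.4 CPM in the deleted libraries. Its groups overlapped, with a log2 difference of -0.059 (SE 0.21, 95% interval -0.56 to 0.44, edgeR adjusted p = 0.942). The gene lies on the X chromosome, and Chaf1b-deleted replicate 1, the library with Xist, lay between the controls and not apart from them.

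Suv39h2 (ENSMUSG00000026646, chr2:3373087-3392303, minus strand, NCBIM37) was the least abundant of the 10, with 21.1 and 17.9 CPM in the controls and 19.2 and 20.6 CPM in the deleted libraries. Both deleted values lay between the controls, and the log2 difference was 0.056 (SE 0.24, 95% interval -0.51 to 0.62, edgeR adjusted p = 0.952). It overlaps Dclre1c and Gm13184 on the opposite strand, so its counts depend on the strand setting of the counting. That setting is not given in the sources used here. The same limit holds for Ezh2 (Gm17629), Suz12 (Gm16706), Suv39h1 (Gm14820) and Setdb1 (Lass2), each of which overlaps the gene in brackets on the opposite strand. The ratio of Suv39h1 to Suv39h2 per kilobase was 2.32 and 2.50 in the controls and 2.38 and 2.04 in the deleted libraries, a log2 difference of -0.13 with SDs of 0.078 and 0.16.

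Ehmt2, also called G9a, places mono- and dimethylation on lysine 9 in euchromatin. Ehmt2 (ENSMUSG00000013787, chr17:35035414-35050997, plus strand, NCBIM37) had close replicates, with 169 and 167 CPM in the controls and 150 and 148 CPM in the deleted libraries. In these CPM, taken without TMM factors, both deleted libraries lay below both controls by more than the replicates of a group differed. The closeness of the deleted replicates depended on this scaling, as their TMM factors were 0.926 and 1.06. In the scaled fit the difference was -0.26 without deleted replicate 1 and -0.015 without deleted replicate 2. The fit, which shares its estimate of spread over all genes, gave a log2 difference of -0.14 (SE 0.20, 95% interval -0.61 to 0.33, edgeR adjusted p = 0.833).

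Setdb1 writes trimethylation on lysine 9 at retroviral elements, where it is brought by the corepressor Trim28, itself recruited by KRAB zinc finger proteins. Setdb1 (ENSMUSG00000015697, chr3:95127447-95161124, minus strand, NCBIM37) stood at 110 and 105 CPM in the controls and at 76.2 and 117 CPM in the deleted libraries. The 2 deleted libraries lay on either side of the controls, and the log2 difference was -0.15 (SE 0.22, 95% interval -0.67 to 0.36, edgeR adjusted p = 0.832). It was 0.035 without Chaf1b-deleted replicate 1 and -0.36 without replicate 2. Of its exonic 31-base stretches, 13.3% occur elsewhere, and the gene overlaps Lass2 on the opposite strand.

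Trim28 (ENSMUSG00000005566, chr7:13609501-13616384, plus strand, NCBIM37) was at 301 and 244 CPM in the controls and at 274 and 221 CPM in the deleted libraries. In each group replicate 1 was the higher, and the groups overlapped. The log2 difference was -0.10 (SE 0.25, 95% interval -0.69 to 0.48, edgeR adjusted p = 0.915), less than the -0.30 between the controls.

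Cbx5 encodes HP1 alpha, which binds methylated lysine 9 and is itself bound by the CAF-1 subunit Chaf1a. Cbx5 (ENSMUSG00000009575, chr15:103021975-103070247, minus strand, NCBIM37) had the most reads of the 10 in each library but Chaf1b-deleted replicate 1, where Trim28 had 6439, with 10926 and 11871 in the controls and 5364 and 6970 in the deleted libraries. These are 481 and 467 CPM in the controls and 228 and 377 CPM in the deleted libraries. Both deleted libraries lay below both controls, and they differed from each other far more than the controls did.

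The fitted difference of Cbx5 was -0.64 on the log2 scale (SE 0.25, 95% interval -1.23 to -0.059), which is -36.0% with an interval from -57.3% to -4.01%. Its unadjusted p was 0.0349 in edgeR's quasi-likelihood test, a test that 3.1% of all genes passed downwards and 9.15% upwards at 0.05, and the edgeR adjusted p was 0.352, so the gene was not called. Against the control mean, Chaf1b-deleted replicate 1 stood at -1.06 and replicate 2 at -0.33. Without replicate 1 the fitted difference was -0.41, and without replicate 2 it was -0.92 (edgeR adjusted p = 0.0957, the lowest of any of the 10 genes under any setting).

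The start regions of Cbx5 and Suv39h2 are shown as those of the lowest and the highest difference among the 10, with the same motifs in capitals. The windows are chr15:103239853-103240102 (minus strand, the upstream of 2 start sites) for Cbx5 and chr2:3474987-3475236 (minus strand) for Suv39h2, both in GRCm38.p6.
Cbx5: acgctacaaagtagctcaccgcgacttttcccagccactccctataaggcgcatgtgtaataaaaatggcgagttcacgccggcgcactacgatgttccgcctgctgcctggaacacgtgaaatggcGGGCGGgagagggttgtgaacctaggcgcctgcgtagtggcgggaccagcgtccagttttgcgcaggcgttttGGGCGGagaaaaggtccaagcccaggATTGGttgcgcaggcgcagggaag
Suv39h2: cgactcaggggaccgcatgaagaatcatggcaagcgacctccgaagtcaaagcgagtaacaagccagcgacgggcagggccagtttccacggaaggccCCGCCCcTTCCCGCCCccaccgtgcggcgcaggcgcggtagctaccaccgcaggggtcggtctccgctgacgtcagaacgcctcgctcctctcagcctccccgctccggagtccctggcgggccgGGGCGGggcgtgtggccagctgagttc
The Cbx5 window held 2 GC boxes and 1 CCAAT box, and the Suv39h2 window 3 GC boxes and the E2F core, which shares bases with a GC box. These matches are descriptions of the letters and were set against no measurement of binding.

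Across the 10 genes, in CPM without TMM factors, 9 were below the control mean in Chaf1b-deleted replicate 1, 8 in replicate 2 and 7 in both. No share over all genes was taken for these counts. In the fits with TMM factors, 6 of the 10 were below 0 without deleted replicate 2 and 8 without deleted replicate 1. For 4 of the 10 (Ezh2, Suz12, Ehmt2 and Cbx5) both deleted libraries lay below both controls, against 22.9% of all genes tested, and for none were both above, against 21.4%. For 5 (Ezh1, Eed, Suv39h1, Suv39h2 and Trim28) the fitted group difference was smaller than the difference between the 2 controls. The difference between the controls was in CPM without TMM factors, and no share over all genes was taken for this count. The 10 genes together held 1577 and 1460 CPM in the controls and 1141 and 1320 CPM in the deleted libraries. Cbx5 alone, with group means of 474 and 303 CPM, made up a large part of this difference.

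Of the 7 accessory subunits of PRC2 that were listed, none was called. In the edgeR test 1 was higher with an unadjusted p under 0.05, against 9.15% of all genes. Of the 7, 3 were above and 4 below 0, where 52.5% of all genes were below 0, and the median log2 difference was -0.069. Phf1, a Polycomb-like subunit that binds trimethylated lysine 36, had the smallest p, with 13.5 and 12.0 CPM in the controls and 21.5 and 26.1 CPM in the deleted libraries. Its log2 difference was 0.91 (SE 0.25, 95% interval 0.34 to 1.48, edgeR adjusted p = 0.189), with both deleted libraries above both controls. Jarid2, which helps bring PRC2 to chromatin, was at 126 and 170 CPM against 82.2 and 121 CPM in the deleted libraries, a difference of -0.53 (edgeR adjusted p = 0.426).

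Mtf2, the Polycomb-like paralog of Phf1, lay on the other side of 0, with 141 and 136 CPM in the controls, 96.4 and 117 CPM in the deleted libraries and a log2 difference of -0.36 (edgeR adjusted p = 0.519). The histone binders Rbbp4 and Rbbp7, which PRC2 shares with CAF-1, differed by 0.18 and 0.029. Rbbp4 stood at 244 and 208 CPM in the controls and at 253 and 249 CPM in the deleted libraries. Rbbp4 and Rbbp7 were named after their values were seen, for being shared with CAF-1.

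Among 23 subunits of PRC1, none was called and none had an unadjusted p under 0.05 in the edgeR test. Of these, 13 lay below 0, where 52.5% of all genes were below 0, with a median of -0.11. Both deleted libraries were below both controls for 8 and above for 1, against 22.9% and 21.4% of all genes tested. The smallest p belonged to Pcgf3, a RING finger subunit of a variant complex, at 68.3 and 63.7 CPM in the controls and 41.8 and 55.2 CPM in the deleted libraries (log2 difference -0.43, edgeR adjusted p = 0.465). Bcor, a corepressor in another variant complex, differed by -0.42 and Phc2, a Polyhomeotic subunit of canonical PRC1, by 0.37.

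The 5 genes of H2AK119 deubiquitination, which remove the mark of PRC1, all lay below 0, against 52.5% of all genes, with a median of -0.18. None was called or had an unadjusted p under 0.05 in the edgeR test. Asxl2, the partner of Bap1, had the lowest p, with 154 and 163 CPM in the controls, 86.2 and 146 CPM in the deleted libraries and a log2 difference of -0.44 (edgeR adjusted p = 0.521). Mysm1 differed by -0.21 and Usp16 by -0.18, with wide differences between the deleted libraries for Mysm1 (61.3 and 91.9 CPM).

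The 15 partners of H3K9 methylation that were listed included other methyltransferases, HP1 paralogs and the HUSH complex, which silences retroviral elements together with Setdb1. None was called. In the edgeR test 1 was higher and 1 lower with an unadjusted p under 0.05, against 9.15% and 3.1% of all genes. Of the 15, 12 lay below 0, against 52.5% of all genes, and the median was -0.32. In CPM without TMM factors, both deleted libraries lay below both controls for 10 of the 15, against 22.9% of all genes. With TMM factors the groups of Setdb2, Cbx1 and Morc3, named for this change, overlapped. Mphosph8, the HUSH subunit that binds methylated lysine 9, was at 54.6 and 42.6 CPM in the controls and at 31.2 and 30.97 CPM in the deleted libraries, with a log2 difference of -0.62 (SE 0.23, 95% interval -1.15 to -0.086, edgeR adjusted p = 0.327).

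Fam208a, the HUSH scaffold, differed by -0.47, with 112 and 98.2 CPM in the controls and 58.3 and 93.5 CPM in the deleted libraries (edgeR adjusted p = 0.491). Atf7ip, which stabilizes Setdb1, went the other way, at 133 and 149 CPM in the controls and 165 and 253 CPM in the deleted libraries (log2 difference 0.58, SE 0.23, edgeR adjusted p = 0.352). The HP1 paralogs Cbx1 and Cbx3, named after their values were seen, differed by -0.35 and -0.0049, but 48.8% of the 31-base stretches of Cbx3 occur elsewhere in the genome and its count is uncertain.

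Of 13 demethylases of lysine 9 or lysine 27, none was called. In the edgeR test 1 was higher with an unadjusted p under 0.05, against 9.15% of all genes. Above 0 lay 8 of the 13, where 52.5% of all genes were below 0, and the median was 0.047. Kdm6b, which removes methylation from lysine 27, stood at 39.5 and 44.9 CPM in the controls and at 47.3 and 113 CPM in the deleted libraries. Its log2 difference was 0.91 (SE 0.34, 95% interval 0.13 to 1.69, edgeR adjusted p = 0.325) and rested on Chaf1b-deleted replicate 2, since it was 0.30 without that library and 1.33 without replicate 1, where the edgeR adjusted p was 0.0319. With all 4 libraries it was called only without the filter on low counts (edgeR adjusted p = 0.0331), among adjusted values of up to 0.399 over the alternatives that kept all 4.

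Kdm4c, a lysine 9 demethylase, differed by -0.33 and Kdm4d by 0.91, the latter from only 0.590 to 1.84 CPM. Kdm6a, the X-linked lysine 27 demethylase that escapes X inactivation, was named after its values were seen. It was at 89.4 and 97.1 CPM in the controls, 126 CPM in the library with Xist and 93.8 CPM in the other deleted library, so 1 of the 2 deleted libraries lay above the controls, and the fitted log2 difference was 0.28.

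**Figure D3:**
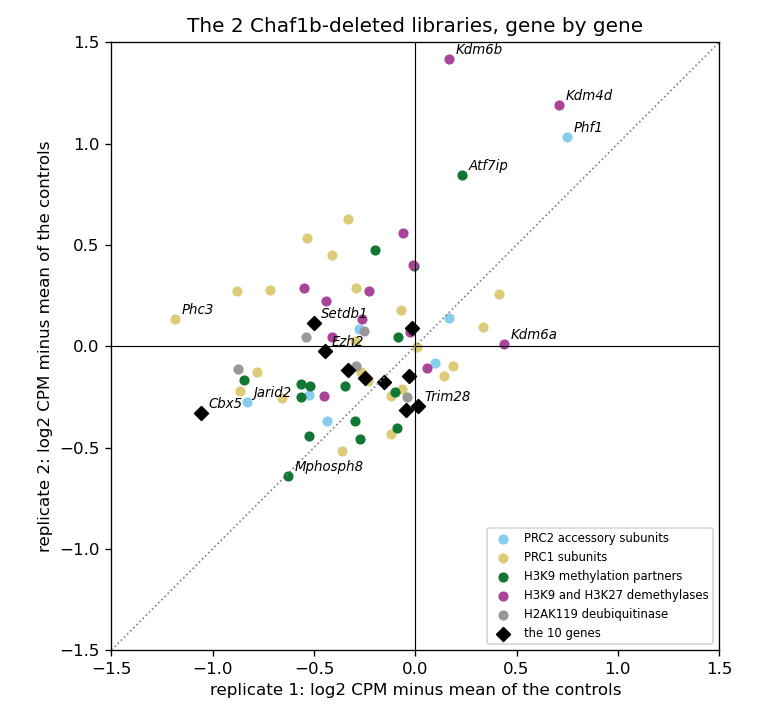
Each gene's log2 CPM in Chaf1b-deleted replicate 1 (horizontal axis) and replicate 2 (vertical axis) minus the mean of the 2 controls, for the 10 genes (black diamonds) and the 63 genes of 5 related lists (coloured points). The dotted line marks equal values in both libraries, Cbx5 lies far to the left of it at -1.06 and -0.33, and Kdm6b far above it.

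Genes that these marks hold silent were read as well. Of 22 listed developmental regulators silenced by Polycomb, 21 were matched and 3 passed the filter. The other 18 had at most 10 reads in any library, and 52, 7, 33 and 18 reads together in control replicates 1 and 2 and deleted replicates 1 and 2, in that order. With 3 reads worth 0.118 to 0.162 CPM in these libraries, most of their values were at or under that level. Olig2, a regulator of neural and glial fate named after its values were seen, had 1 and 0 reads in the controls and 10 and 7 in the deleted libraries, or 0.044 and 0 CPM against 0.425 and 0.379 CPM, and was not tested.

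Cdkn2b, a cell cycle inhibitor of the Ink4 locus, was at 0.308 and 0.236 CPM in the controls and at 0.850 and 0.920 CPM in the deleted libraries (log2 difference 1.71, SE 0.64, edgeR adjusted p = 0.329). Pax6, a regulator of eye and brain development, was at 0.572 and 0.630 CPM in the controls and at 0 and 0.217 CPM in the deleted libraries (log2 difference -2.54, SE 1.06, edgeR adjusted p = 0.389), where a count of 0 in replicate 1 allows up to 0.127 CPM. Cdkn2b passed the filter only through the deleted libraries and Pax6 only through the controls, each the group where it was higher. The filter thus favoured a large difference in both genes. Foxc1 differed by 0.32 with overlapping groups.

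Of 20 germline genes known to be silenced with H3K9 methylation, 4 passed the filter, all 4 above 0, and none was called. Dazl passed the filter only through the deleted libraries, where it was higher, so its side of 0 was favoured by the filter. Dazl, an RNA-binding protein of germ cells, had 5 and 5 reads in the controls and 39 and 24 in the deleted libraries, or 0.220 and 0.197 CPM against 1.66 and 1.30 CPM. Its log2 difference was 2.84 (SE 0.63, 95% interval 1.37 to 4.31) with an edgeR quasi-likelihood adjusted p of 0.13. The call depended on the test, since the adjusted p was 0.0046 in edgeR's exact test, 0.0026 in its likelihood ratio test and 0.0022 without the filter on low counts, but up to 0.205 over the alternatives that kept all 4 libraries.

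Stag3, a meiotic cohesin, was at 12.2 and 26.96 CPM in the controls and at 23.0 and 31.5 CPM in the deleted libraries, and Brdt, a bromodomain protein of the testis, at 0.660 and 0.512 against 0.637 and 1.41 CPM. The groups of both overlapped. The 16 germline genes under the filter held 34, 28, 29 and 36 reads together in the 4 libraries in the same order.

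**Figure D4:**
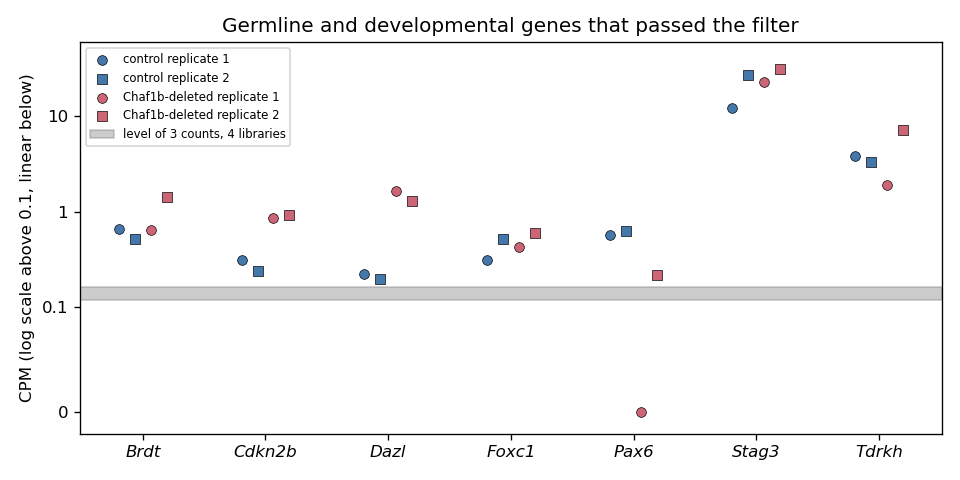
CPM of the 7 developmental and germline genes that passed the filter on low counts, in the 2 control (blue) and 2 Chaf1b-deleted (red) libraries, on an axis that is logarithmic above 0.1 and linear below. The grey band is the level of 3 reads, from 0.118 to 0.162 CPM, and the 2 red points of Dazl, 1.66 and 1.30 CPM, lie above its controls.

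The 20 proliferation markers summed to 8034 and 7907 CPM in the controls and to 4884 and 5618 CPM in the deleted libraries, with a median log2 difference of -0.31 and both deleted libraries below both controls for 15 of the 20, against 22.9% of all genes. None of the 20 was called. In the edgeR test 2 were lower and 1 higher with an unadjusted p under 0.05, against 3.1% and 9.15% of all genes. Mki67, a marker of cycling cells, was at 2943 and 3193 CPM in the controls and at 1002 and 1860 CPM in the deleted libraries (log2 difference -1.10, SE 0.33, edgeR adjusted p = 0.229), and like Cbx5 it was lowest in replicate 1. Its call depended on the test, since the adjusted p was 0.0196 in edgeR's exact test, 0.0178 in its likelihood ratio test, 0.0056 in DESeq2 and 0.013 without the filter on low counts, and up to 0.312 over the alternatives that kept all 4 libraries. Bub1 differed by -0.47 and E2f2 by 0.56.

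Chaf1b-deleted replicate 1 had the highest sum of 8 monocyte and macrophage markers, 1867 CPM against 792 to 1188 CPM, and the highest sums of interferon-stimulated and neutrophil genes given with the samples. Chaf1b-deleted replicate 2 had the highest sum of 8 erythroid and megakaryocyte markers, 254 CPM against 114 to 151 CPM. B cell and T cell markers were near 0 throughout, at 8.80 to 15.4 CPM for 9 genes. The part of proliferation, of mature myeloid RNA and of the interferon genes in the values of Cbx5 and the other 9 genes was not tested.

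The genes whose profile over the 4 libraries lay nearest to those of the PRC2 enzymes were found among 9289 genes with a mean of at least 10 CPM, by the Euclidean distance between centred log2 CPM values. For Ezh2 they were Fancc, Mtor, Nrd1, Pan3 and Vdac1, at distances of 0.020 to 0.030, all lowest in Chaf1b-deleted replicate 1. For Ezh1 they were Agfg1, Snapc2, Ikbke, Snx9 and Rps6ka5, at distances of 0.039 to 0.071, all highest in control replicate 2. With 4 libraries and 9289 genes, near profiles are to be found for almost any gene, and the names are a description of these libraries.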

How the data were processed

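RNA of 4 libraries of mouse HSPCs was sequenced by the authors from ribosome-depleted, stranded total RNA. For alignment the authors used STAR and mm9, and for counting per gene HTSeq, and the deposited values are raw counts in a separate table for each library. The annotation release and the strand setting are not given in the sources used here. Between 38.6% and 50.5% of uniquely aligned reads were outside a single gene and were left out of library sizes. The share was lowest in Chaf1b-deleted replicate 1 and highest in Chaf1b-deleted replicate 2. Symbols, positions and exon lengths came from the NCBIM37 annotation, which names 33068 of the 43629 identifiers and holds 4242 identifiers that the tables lack, so lengths may differ from the exons counted. Of 202 listed symbols 201 were matched, 4 of them through RefSeq synonyms.

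Counts were tested with edgeR 4.0.16 (limma 3.58.1, R 4.3.3) by filterByExpr with a minimum count of 10, TMM factors of 0.926 to 1.06, and glmQLFit and glmQLFTest with no covariate and a prior of 5.68 degrees of freedom. The biological coefficient of variation was 0.276. Calls needed a 1.5-fold change and a Benjamini-Hochberg adjusted p under 0.05. Intervals are 95% intervals of the fit, and values per library are CPM without TMM factors. Counts of genes with both deleted libraries below or above both controls use the same CPM, and some change with TMM factors. The test was checked on simulated counts. The alternatives were other scalings, filters, tests and thresholds, the replicate number as a block, and each library left out.

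The genes named are the 10, Chaf1b, Chaf1a, Xist, the 3 with the smallest p in each related list and the 5 nearest profiles of Ezh1 and Ezh2; exceptions are stated. The members and lists were chosen with earlier results of these data known. The labels do not say that same-numbered libraries share an animal or culture, nor that replicates were separate cultures, so p-values measure the spread between these libraries only. The chi-square per degree of freedom was 39.1 between the controls and 59.7 between the deleted libraries, so replicates differed by more than sampling noise. Protein sequences were not used here.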

Additional observations from a re-analysis of the deposited data

How the results depend on the processing

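None of the 10 genes was called under any setting, and 9 of 10 lay below 0 under each of the 8 alternatives that kept all libraries, with DESeq2 1.42.0 among them. The number of genes called higher and lower over the whole table depended on the test. Against 61 higher and 1 lower, it was 27 higher with DESeq2's size factors, 30 higher with library size alone, 808 and 79 without the filter on low counts, 3 and 0 with at least 10 counts in every library, 537 and 37 with edgeR's exact test, 583 and 40 with its likelihood ratio test, 472 and 34 with DESeq2, and 0 and 0 at 2-fold with an adjusted p under 0.01. With the replicate number as a block it was 14 and 0. Same-numbered libraries deviated together with r = 0.0133 over 16500 genes, so the numbers were not taken to pair the libraries. With each library left out in turn, in fits where a lone library is assumed to vary like the others, 125 to 331 genes were called higher and 6 to 42 lower, and the median of the 10 genes ran from -0.24 to -0.069. The sign turned in these fits for Eed (-0.42 to 0.12), Suv39h1 (-0.23 to 0.11), Trim28 (-0.39 to 0.15), Ezh1 (-0.37 to 0.0019), Suv39h2 (-0.072 to 0.19) and Setdb1 (-0.36 to 0.035), and not for Ezh2, Suz12, Ehmt2 and Cbx5. The single values that turned were 0.12 for Eed, 0.011 for Suv39h1 and 0.060 for Trim28 without control replicate 1, 0.0019 for Ezh1 and -0.072 for Suv39h2 without control replicate 2, 0.035 for Setdb1 without deleted replicate 1, and 0.074 for Eed, 0.11 for Suv39h1 and 0.15 for Trim28 without deleted replicate 2. Without the filter the median of all genes moved to -0.13, that of the 10 genes being -0.13 as well. Over the related lists of Polycomb and H3K9 genes, no gene was called by DESeq2 or by the exact or likelihood ratio test, and the germline gene Dazl was called by the latter pair and not by DESeq2. The causes were not tested. With 2 libraries a group and a biological coefficient of variation of 0.276, the intervals of 9 of the 10 genes reach past 1.5-fold in 1 direction. For Suv39h2 that direction was up, with an upper bound of 0.62, and for the others it was down. A change of that size in that direction is thus not excluded for these genes. Only the interval of Cbx5, from -1.23 to -0.059, left out 0.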
